A study of Mus musculus with 15 samples.

Results

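The mouse Zfp genes are a set of genes named for the zinc finger, a small protein fold held together by a zinc ion. The array annotation assigned 625 probe sets to a single gene whose symbol starts with Zfp, and these covered 337 genes once Zfp57 and Zfp42 were left out by the rule. Each gene was represented by its probe set with the highest mean over all 15 arrays, and a gene was kept when that mean was 6 or more on the log2 scale of the deposited values. This kept 129 genes, and 208 had a lower mean. The mean over all arrays therefore chose the members. For 8 of them, Zfp33b, Zfp365, Zfp383, Zfp385a, Zfp41, Zfp423, Zfp703 and Zfp819, the other 4 lines averaged under 6 without the highest line. These 8 passed through that line, so the rule partly fixed that they differ. Of the 8, 6 met the rule for a difference among the lines used below, and of the 121 other members 54 did (44.6%). The last genes inside the limit were Zfp365 at 6.066 and Zfp33b at 6.066, and the first outside were Zfp142 at 5.98 and Zfp868 at 5.94. All 129 passed the filter on low values, as did 152 of the 208 genes below 6.

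RNA was profiled on Affymetrix mouse expression arrays in 5 embryonic stem (ES) cell lines, each hybridised to 3 arrays. FpB6CBA and FpB6D2 are parthenogenetic lines, made by activating oocytes that had been grown in vitro from preantral follicles of B6CBAF1 females (female C57BL6 crossed with male CBA/ca) and of B6D2F1 females (female C57BL6 crossed with male DBA2). OpB6D2 is the other parthenogenetic line, from naturally ovulated B6D2F1 oocytes. R1 and NmB6D2 came from fertilised embryos: R1 is a purchased line from a cross of 129S1/SvImJ with 129X1/SvJ, and NmB6D2 was made after natural mating of C57BL6 females with DBA2 males. A parthenogenetic embryo has no paternal genome. Each kind of line is represented by a single line, so line, strain and derivation cannot be told apart where they coincide, and the labels do not say whether the 3 arrays of a line came from separate cultures. P values therefore rest on the variation among those 3 arrays, which may be technical.

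Most Zfp proteins carry fingers of the C2H2 type, which read DNA, and many of these also carry a KRAB domain. KRAB zinc finger proteins recruit the co-repressor TRIM28 and with it the histone methyltransferase SETDB1, which silences retroelements and certain genes in embryonic cells. The genes often lie in clusters made by duplication. Others in the set do different work: some bind RNA, some act on the ribosome, and some are partners of chromatin complexes. The symbol thus groups genes by a name and not by a shared function.

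The promoters of 5 genes are shown because the results turn on them: Zfp819, Zfp936 and Zfp59 had the widest ranges between lines, Zfp296 was highest in FpB6D2, and Zfp36 was highest in NmB6D2. Each window is a RefSeq sequence of the GRCm38.p6 build, 300 bases long, read on the strand of the gene, ending 50 bases after the annotated start. Capitals mark matches on either strand to any of 5 motifs. The letters of the GC box are GGGCGG. The CCAAT box has the letters that name it. The TATA box was searched as TATAAA. The E-box searched was CACGTG. The ETS site was searched as CCGGAAG. Overlapping matches would share their capitals.
Zfp819, chr7:43606919-43607218, plus strand: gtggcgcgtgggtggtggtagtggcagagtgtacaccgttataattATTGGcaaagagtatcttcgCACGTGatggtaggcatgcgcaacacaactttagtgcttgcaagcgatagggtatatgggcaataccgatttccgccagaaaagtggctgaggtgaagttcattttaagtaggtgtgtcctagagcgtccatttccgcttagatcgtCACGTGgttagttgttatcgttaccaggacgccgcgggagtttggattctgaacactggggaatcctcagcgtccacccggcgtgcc
Zfp936, chr7:43177340-43177639, plus strand: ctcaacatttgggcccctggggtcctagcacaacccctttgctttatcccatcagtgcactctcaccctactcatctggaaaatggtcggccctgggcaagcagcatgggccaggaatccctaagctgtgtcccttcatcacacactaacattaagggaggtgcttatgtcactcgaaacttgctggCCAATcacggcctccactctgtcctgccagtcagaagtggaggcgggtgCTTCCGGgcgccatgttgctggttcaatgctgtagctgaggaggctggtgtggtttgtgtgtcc
Zfp59, chr7:27838334-27838633, plus strand: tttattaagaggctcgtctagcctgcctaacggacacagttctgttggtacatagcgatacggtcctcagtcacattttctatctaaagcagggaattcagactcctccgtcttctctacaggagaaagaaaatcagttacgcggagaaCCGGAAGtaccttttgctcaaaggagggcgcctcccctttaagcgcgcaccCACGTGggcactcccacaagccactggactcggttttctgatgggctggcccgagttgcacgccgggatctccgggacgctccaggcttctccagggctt
Zfp296, chr7:19577037-19577336, plus strand: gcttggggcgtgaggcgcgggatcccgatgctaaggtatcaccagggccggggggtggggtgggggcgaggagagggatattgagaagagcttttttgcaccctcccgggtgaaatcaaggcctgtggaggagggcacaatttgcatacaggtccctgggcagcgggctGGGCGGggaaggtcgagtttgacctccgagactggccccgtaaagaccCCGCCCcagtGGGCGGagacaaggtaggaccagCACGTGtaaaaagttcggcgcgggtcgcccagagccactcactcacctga
Zfp36, chr7:28379179-28379478, minus strand: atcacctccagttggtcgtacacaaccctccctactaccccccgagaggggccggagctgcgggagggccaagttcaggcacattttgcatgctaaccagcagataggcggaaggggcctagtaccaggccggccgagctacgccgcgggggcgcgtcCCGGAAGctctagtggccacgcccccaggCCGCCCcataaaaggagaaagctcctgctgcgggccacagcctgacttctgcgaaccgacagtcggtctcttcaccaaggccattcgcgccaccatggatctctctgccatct

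A promoter window was found for 104 of the 129 genes. Where a gene had several, the first by position on the chromosome was used. The windows of these 104 genes held a median of 19 CpG dinucleotides, against 7 over all 27025 windows, and a median GC content of 58.7% against 52.7%. The GC box was present in 57.7% of them against 35.6% of all windows, and the ETS site in 21.2% against 9.08%. The CCAAT box stood in 46.2% against 37.8%, the TATA box in 9.62% against 14.1%, and the E-box in 7.69% against 7.09%. Among the 5 printed windows, Zfp819, Zfp936 and Zfp59 hold no GC box, Zfp36 holds 1 and Zfp296 holds 3. The median CpG count was 18 in the 47 genes that differed among the lines and 20 in the 57 that did not, with overlapping ranges of 5 to 54 and 2 to 51. These matches are letters in a window and say nothing of whether a factor binds there.

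Array medians over the tested genes ran from 6.63 to 6.79. Arrays of one line correlated at 0.993 to 0.998 over the tested genes and at 0.981 to 0.994 over the Zfp genes, and arrays of different lines at 0.91 to 0.978 and at 0.689 to 0.905. Genes that mark ES cells, among them Pou5f1, Sox2 and Nanog, averaged 11.47 to 11.87 in the 5 lines, and all 6 genes of that list were at the filter value in each line. The mean of 6 primitive endoderm markers was 5.97 in FpB6CBA, 4.85 in FpB6D2, 4.86 in OpB6D2, 5.87 in R1 and 4.55 in NmB6D2, and all 6 reached the filter value of 3.864 in FpB6CBA while 5 did in each other line. The mean of 8 fibroblast markers was 7.64 in R1 and 6.14 to 6.79 in the others, with all 8 at the filter value in every line. The mean of 6 trophectoderm markers was 5.09 to 6.30 in the other lines and 7.16 in NmB6D2, with 4 or 5 at the filter value in the other lines and 6 in NmB6D2. The means of 3 neuroectoderm markers ran from 4.47 to 4.95, and those of 3 mesendoderm markers were 6.85 in R1 and 4.64 to 4.90 elsewhere. The hybridisation controls read 9.43 to 10.20 on the FpB6CBA arrays, 9.58 to 9.88 on those of FpB6D2 and 9.10 to 9.51 on the other arrays. The actin probe sets at the 3' end read above those at the 5' end by 0.659 to 0.757 log2 units in FpB6CBA, 0.616 to 0.651 in FpB6D2 and 0.478 to 0.548 in the other lines. The part of these differences in the results on Zfp genes was not tested. In bulk RNA, fewer cells of a type and less RNA per cell cannot be told apart.

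Across the 5 lines, 60 of the 129 Zfp genes (46.5%) differed, by an adjusted p under 0.05 in limma's moderated F-test and a range of at least 1 log2 unit between the highest and the lowest line mean. By the same rule 32.9% of all 12813 tested genes differed, and 33.3% of the 7639 other genes with a mean of 6 or more. The range had a median of 0.918 log2 units over the Zfp genes and 0.786 over those other genes. It ran from 0.21 for Zfp212 to 3.43 for Zfp819, and 8 genes had a range over 2. Without the minimum on the range, 125 of the 129 had an adjusted p under 0.05. The SD between arrays of a line had a median of 0.083.

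Zfp819, a repressor of endogenous retroviruses in pluripotent cells, had the widest range, and it reached the level of 6 through FpB6D2, since the other 4 lines averaged 5.78. Its values were 5.25, 5.33 and 5.22 in FpB6CBA, 8.43, 8.54 and 8.50 in FpB6D2, 6.57, 6.64 and 6.37 in OpB6D2, 4.97, 5.10 and 5.10 in R1, and 6.35, 6.18 and 6.22 in NmB6D2 (limma adjusted p = 4.06e-13 over the 5 lines). FpB6D2 lay above every other array, R1 lay below them, and OpB6D2 and NmB6D2 were close together. Zfp936 read 5.02, 5.19 and 4.45 in FpB6CBA, 8.14, 8.11 and 8.14 in FpB6D2, 8.24, 8.09 and 7.92 in OpB6D2, 7.56, 7.56 and 7.65 in R1, and 5.92, 6.13 and 5.84 in NmB6D2. FpB6CBA was lowest, NmB6D2 came next, and the arrays of FpB6D2 and OpB6D2 overlapped at the top. Zfp59 read 5.53, 5.59 and 5.26 in FpB6CBA, 8.32, 8.40 and 8.22 in FpB6D2, 7.31, 7.25 and 7.27 in OpB6D2, 8.04, 7.74 and 8.02 in R1, and 5.62, 4.94 and 5.58 in NmB6D2. FpB6CBA and NmB6D2 overlapped at the bottom and the other 3 lines were well above both.

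**Figure D1:**
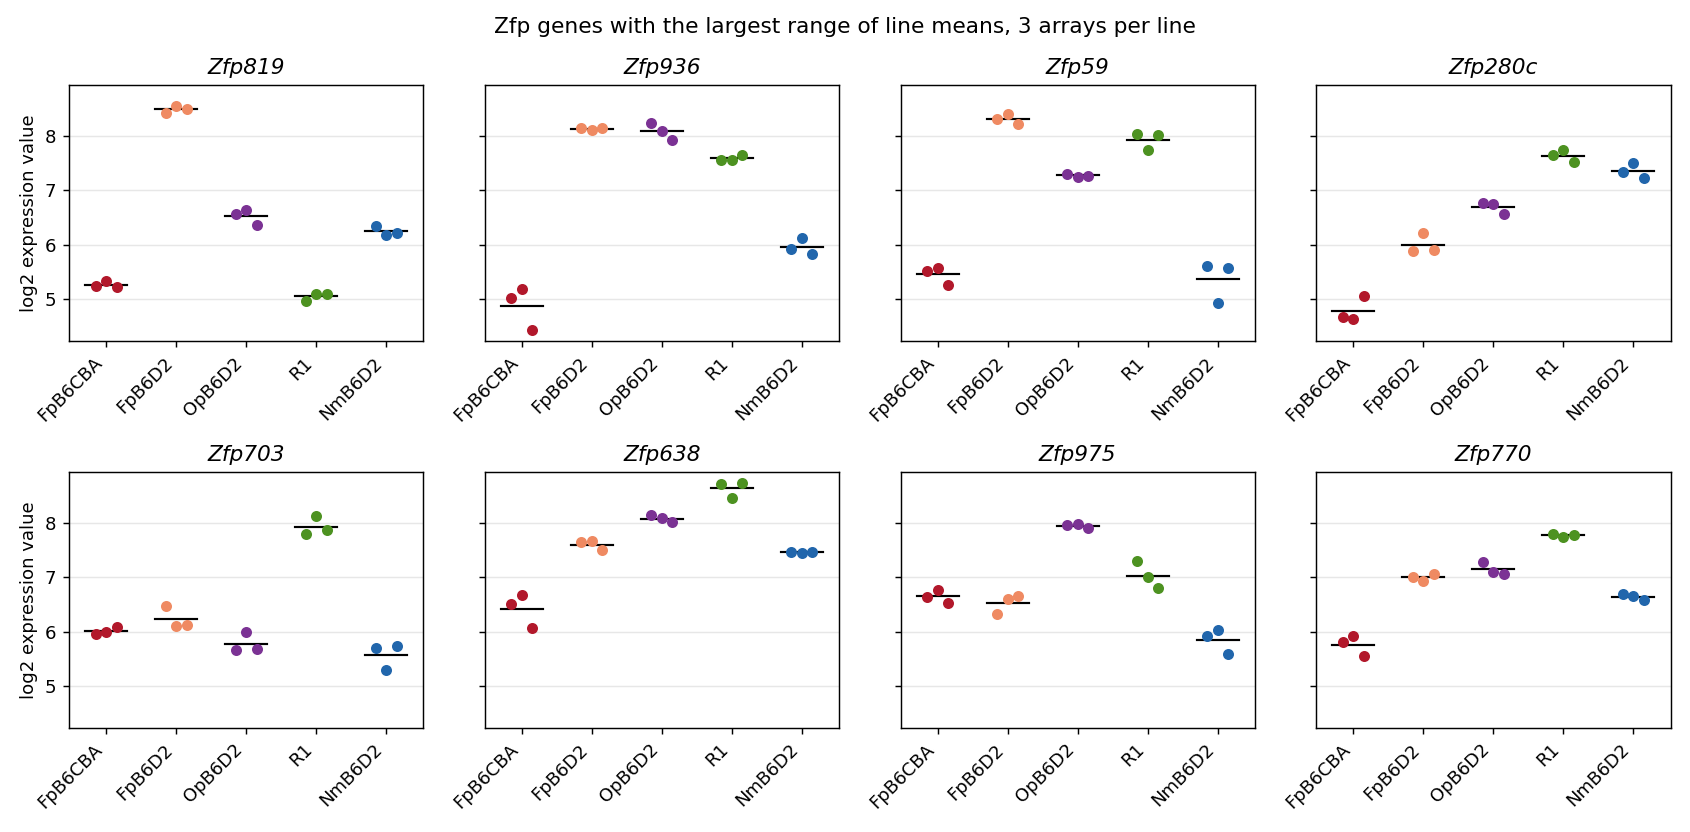
Log2 expression value (vertical axis) of the 8 Zfp genes with the widest range of line means in FpB6CBA, FpB6D2, OpB6D2, R1 and NmB6D2 (horizontal axis). Points are the 3 arrays of a line and bars are line means; Zfp819 averages 8.49 in FpB6D2 and 5.27 in FpB6CBA, and Zfp703 averages 7.93 in R1 and 5.58 in NmB6D2.

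The next genes by range differed in other lines. Zfp280c, an X-linked gene of a family related to the fly insulator protein Su(Hw), read 4.68, 4.65 and 5.05 in FpB6CBA, 5.89, 6.22 and 5.91 in FpB6D2, 6.77, 6.75 and 6.58 in OpB6D2, 7.65, 7.74 and 7.51 in R1, and 7.35, 7.50 and 7.23 in NmB6D2. The 3 parthenogenetic lines all lay below both fertilised lines. Zfp638, which takes part in silencing retroviral DNA, read 6.51, 6.67 and 6.08 in FpB6CBA and 8.71, 8.46 and 8.72 in R1, the extremes of its range. Zfp975 averaged 7.95 ± 0.04 in OpB6D2 and 5.84 ± 0.23 in NmB6D2 (SD, n = 3 each). Zfp770 averaged 5.76 ± 0.19 in FpB6CBA and 7.77 ± 0.03 in R1. Neither gene's extreme lines overlapped on any array, which their choice by the widest ranges makes likely. Zfp703, Zfp593 and Zfp423 complete the 10 widest ranges and are described with their roles.

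The steadiest genes were Zfp212, with a range of 0.21, followed by Zfp335, Zfp748, Zfp746 and Zfp639 with 0.23 to 0.34. The brightest probe sets were those of Zfp622, Zfp207, Zfp568, Zfp106 and Zfp36l1, with means over the arrays of 10.53 to 9.29. Brightness of different probe sets does not rank transcripts. Of these 5, Zfp568 and Zfp106 differed among the lines by the rule above and the other 3 did not reach a range of 1.

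**Figure D2:**
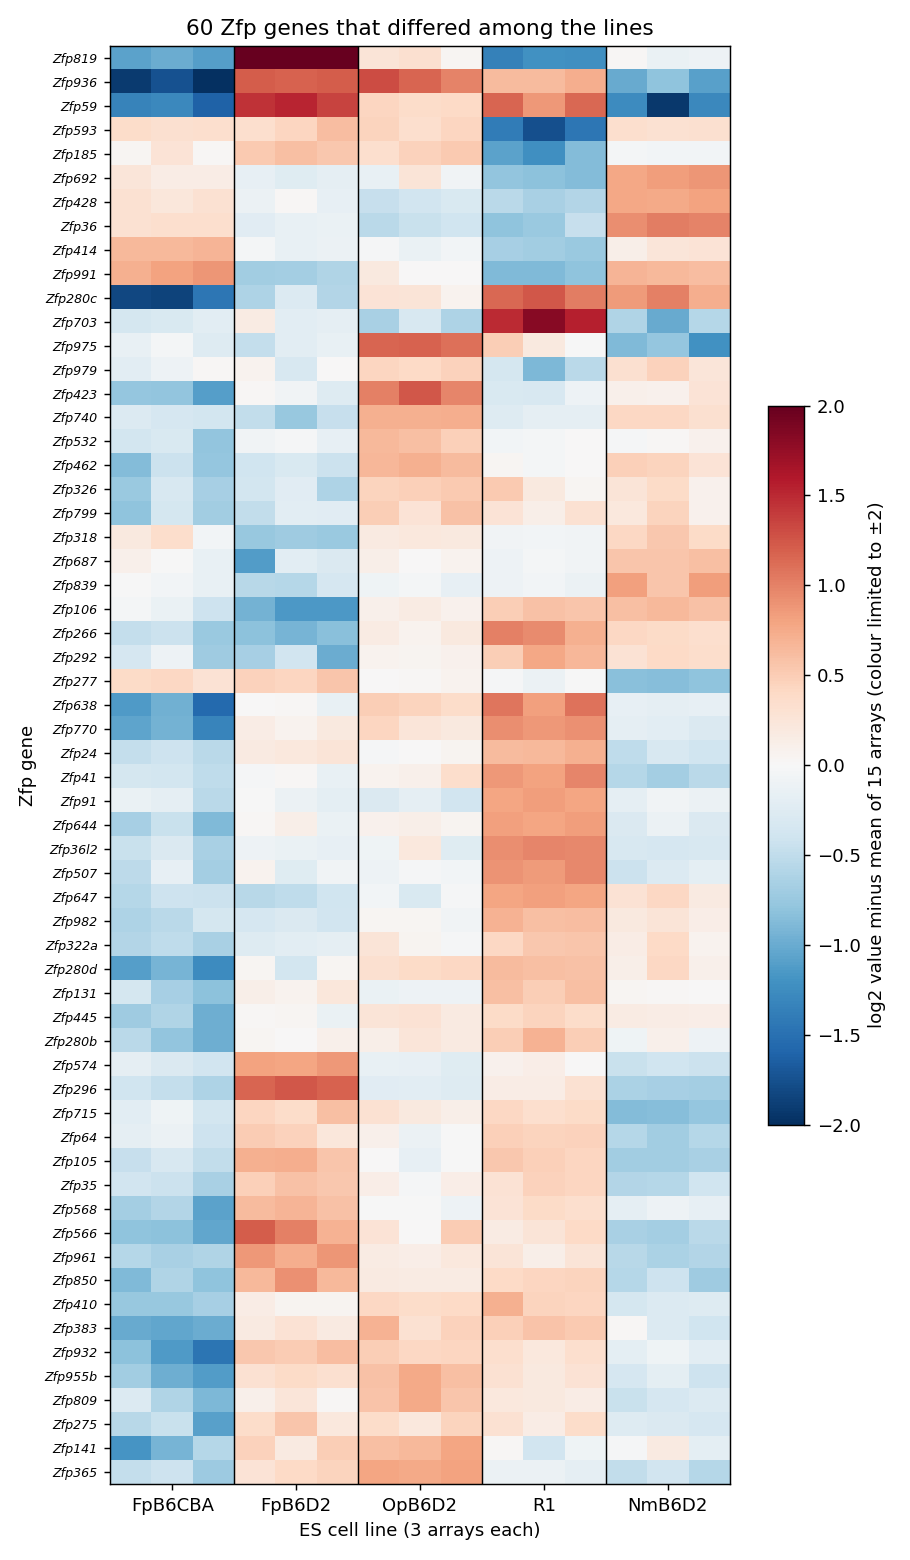
Log2 value minus the gene's mean over 15 arrays (colour, limited to 2 units either way) for the 60 Zfp genes that differed among the lines (rows), on each array (columns, grouped by line). The 3 columns of a line resemble each other, and blue (below the gene's mean) is common in FpB6CBA, the lowest line for 51 of the 129 Zfp genes.

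The median Zfp gene read lowest in FpB6CBA. The median over the 129 genes was 6.74 in FpB6CBA (6.67 to 6.83 on its arrays), 7.22 in FpB6D2, 7.17 in OpB6D2, 7.31 in R1 and 7.04 in NmB6D2, and the FpB6CBA arrays did not overlap the others, whose medians ran from 7.01 to 7.36. FpB6CBA was the lowest line for 51 genes (39.5%, against 22.8% of the other genes with a mean of 6 or more) and the highest for 9 (7.0%, against 24.2%). R1 was the highest line for 41 genes (31.8% against 25.4%) and FpB6D2 for 40 (31.0% against 22.3%). The counts of highest lines include the 8 genes that reached the level through their highest line. The 3 arrays of FpB6CBA lay below all 12 other arrays for 28 Zfp genes (21.7%), where 9.18% of all tested genes did, and above them for 4 (3.10%), where 12.1% did. Of the other genes at 6 or more, 12.5% lay below and 14.5% above. The FpB6CBA arrays also had the widest gap between the ends of actin, 0.659 to 0.757 against 0.478 to 0.651 on the other arrays, and its part in the low Zfp values was not tested. The 4 above, Zfp414, Zfp991, Zfp688 and Zfp385a, were picked out after their values were seen, and Zfp385a reached the level through FpB6CBA.

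R1 showed the opposite balance. Its arrays lay above all the others for 31 Zfp genes (24.0%, against 15.9% of all tested genes) and below for 12 (9.30% against 15.4%). FpB6D2 lay above for 26 (20.2% against 10.5%) and below for 12 (9.30% against 8.3%). OpB6D2 lay above for 11 (8.53% against 5.56%) and below for 5 (3.88% against 3.79%), and NmB6D2 above for 11 (8.53% against 5.55%) and below for 10 (7.75% against 5.67%). Of the other genes at 6 or more, 17.4% lay above in R1, 13.6% in FpB6D2, 6.53% in OpB6D2 and 7.13% in NmB6D2. In the same order, 19.8%, 10.7%, 5.16% and 7.53% lay below. The Zfp shares below in FpB6D2, OpB6D2 and NmB6D2, and those above in OpB6D2 and NmB6D2, are close to this background. The counts of genes lying above include some that reached the level of 6 through the same line, so the rule partly fixed them. These are Zfp703 and Zfp41 in R1, Zfp819 in FpB6D2, and Zfp33b, Zfp365 and Zfp423 in OpB6D2.

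**Figure D3:**
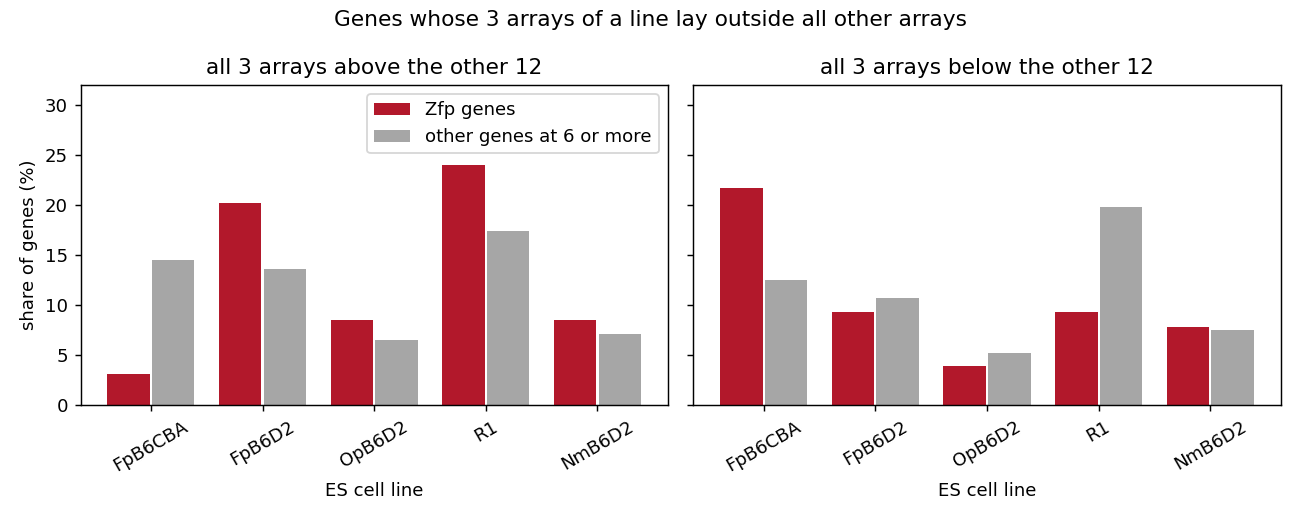
Share of genes (vertical axis, %) whose 3 arrays of a line lay above (left) or below (right) all 12 other arrays, for the 129 Zfp genes and the 7639 other genes with a mean of 6 or more. FpB6CBA has 3.10% of Zfp genes above and 21.7% below, and R1 has 24.0% above and 9.30% below.

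FpB6CBA against FpB6D2 compares lines of follicle oocytes that differ in the paternal strain of the F1 females. A gene was called in a contrast at a limma adjusted p under 0.05 and at least a 2-fold difference. In FpB6CBA 20 Zfp genes were called lower (15.5%) and 1 higher (0.775%), where 5.14% of all tested genes were lower and 6.03% higher. The median difference over the 129 genes was -0.318 log2 units, against 0.008 over the other genes with a mean of 6 or more. Zfp936 was 9.49-fold lower (-3.25 ± 0.15, SE; adjusted p = 2.65e-10), Zfp819 9.33-fold lower, Zfp59 7.23-fold lower and Zfp566 3.61-fold lower. Zfp566 read 5.79, 5.77 and 5.56 in FpB6CBA, against 7.79, 7.60 and 7.29 in FpB6D2. The single higher gene was Zfp991, at 8.33, 8.42 and 8.50 in FpB6CBA, against 6.92, 6.93 and 7.01 in FpB6D2 (1.46 ± 0.06, SE; adjusted p = 2.15e-10). Its next probe set differed by only 0.007. The hybridisation and poly-A controls and the primitive endoderm markers also differed between these lines, with poly-A controls at 8.01 to 8.85 in FpB6CBA and 7.72 to 7.81 in FpB6D2, and 5 of the 6 markers higher and 1 lower in FpB6CBA. Without FpB6CBA replicate 3, whose poly-A controls were the highest, 17 genes were lower and 2 higher, and the lower calls of Zfp35 (-0.942), Zfp275 (-0.876) and Zfp280d (-0.92) were lost.

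**Figure D4:**
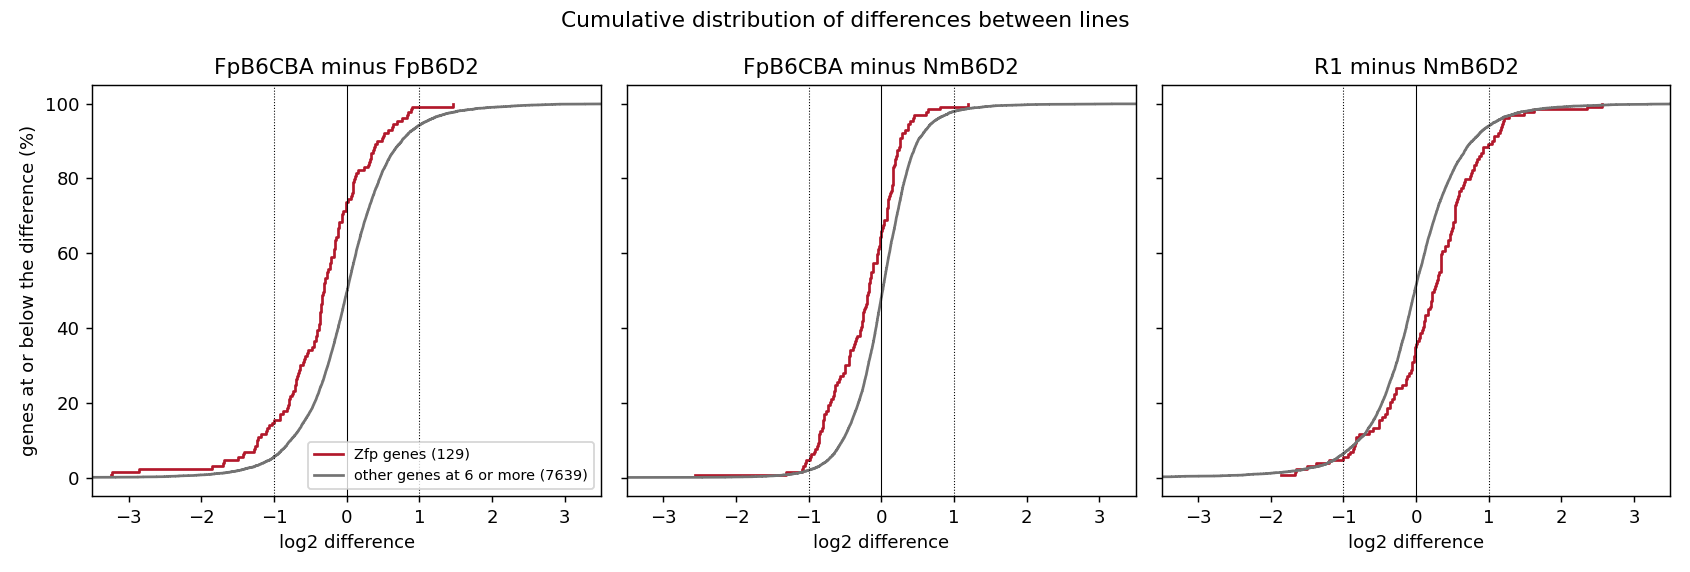
Cumulative share of genes (vertical axis, %) at or below each log2 difference (horizontal axis) in 3 comparisons between lines, for the 129 Zfp genes and 7639 other genes with a mean of 6 or more. The Zfp curve lies to the left in both FpB6CBA panels (medians -0.318 and -0.166) and to the right in R1 minus NmB6D2 (median 0.24); dotted lines mark a 2-fold difference.

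Against NmB6D2, FpB6CBA had 6 Zfp genes lower (4.65%, where 1.63% of all tested genes were lower) and 1 higher (0.775%, where 2.57% were higher). The median difference was -0.166. With median centring 9 were lower and 1 higher, at a median of -0.243. The primitive endoderm markers were also higher in FpB6CBA, 4 of 6 by the same rule with a median of 1.36, and their part was not tested. The lower genes were Zfp280c, Zfp280d, Zfp462, Zfp936, Zfp423 and Zfp638. Zfp280c was 5.91-fold lower (-2.56 ± 0.12, SE; limma adjusted p = 1.59e-09). Zfp280d read 5.16, 5.33 and 4.99 in FpB6CBA, against 6.38, 6.68 and 6.35 in NmB6D2. Zfp280b, picked out after its values were seen, read 7.15, 6.89 and 6.71 against 7.59, 7.78 and 7.58 and was 1.66-fold lower, short of the 2-fold limit. FpB6CBA was thus the lowest line for each of these 3 Zfp280 genes. The higher gene was Zfp277, which in mouse fibroblasts is known to bind the Ink4a/Arf locus, at 9.20, 9.22 and 9.11 in FpB6CBA, against 7.98, 7.97 and 8.01 in NmB6D2. Without FpB6CBA replicate 3, Zfp936 (-0.86), Zfp638 (-0.87) and Zfp423 (-0.936) fell short of 2-fold. Without 1 array of NmB6D2, Zfp936 (-0.996, replicate 3) and Zfp423 (-0.987, replicate 4) did.

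FpB6D2 against NmB6D2 sets a parthenogenetic line beside a fertilised line of the same strains. NmB6D2 came from a cross of the 2 strains and FpB6D2 from oocytes of F1 females, so genotype and origin cannot be told apart. In FpB6D2 13 Zfp genes were higher (10.1%, against 5.22% of all tested genes) and 10 lower (7.75% against 5.53%), with a median difference of 0.136. Zfp59 was 7.63-fold higher (2.93 ± 0.15, SE; limma adjusted p = 1.08e-09), Zfp819 4.72-fold, Zfp936 4.49-fold and Zfp296 3.62-fold. Among the lower genes, Zfp106 was 3.23-fold lower, Zfp280c 2.55-fold and Zfp991 2.48-fold. Zfp991 read 6.92, 6.93 and 7.01 in FpB6D2, against 8.29, 8.26 and 8.24 in NmB6D2. Zfp266, a barrier to reprogramming in mouse cells, read 6.29, 6.19 and 6.29 against 7.53, 7.49 and 7.45. None of these genes overlapped between the 2 lines on any array, which their choice by the largest called differences makes likely. Leaving out 1 array of either line ended the calls of Zfp292 (-0.87 without FpB6D2 replicate 3), Zfp64 (as low as 0.957 without FpB6D2 replicate 1) and Zfp687, described below.

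OpB6D2 against NmB6D2 makes the same comparison, with the same limit, for the line from oocytes that were ovulated naturally. In OpB6D2 5 genes were higher (3.88% against 3.24% of all tested genes) and 2 lower (1.55% against 2.6%), shares close to the background. The higher genes were Zfp936, Zfp975, Zfp59, Zfp365 and Zfp715. Zfp936 was 4.35-fold higher (2.12 ± 0.15, SE; limma adjusted p = 4.03e-08) and Zfp975 4.29-fold higher, at 7.96, 7.98 and 7.90 in OpB6D2, against 5.92, 6.03 and 5.58 in NmB6D2. Zfp365, whose human relative ZNF365 is known for a part in genome stability, read 6.85, 6.83 and 6.87 against 5.58, 5.69 and 5.49. The lower genes were Zfp36 and Zfp428, and Zfp428 read 8.74, 8.82 and 8.89 against 9.97, 9.95 and 10.01. Zfp59, Zfp715 and Zfp936 were thus higher than in NmB6D2 in both B6D2 parthenogenetic lines, which share that control line. The same genes were also called higher in R1, a fertilised line, against NmB6D2. In the parthenogenetic line FpB6CBA none of them was called higher than in NmB6D2, and Zfp936 was called lower. These calls therefore do not separate parthenogenetic from fertilised lines. Zfp715 in OpB6D2 fell to 0.986 without OpB6D2 replicate 1.

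FpB6D2 against OpB6D2 compares 1 ES line from oocytes grown in vitro with 1 from oocytes ovulated naturally, so line and oocyte source cannot be told apart. In FpB6D2 4 genes were higher (3.10% against 1.31% of all tested genes) and 6 lower (4.65% against 2.44%). The higher genes were Zfp819, 3.90-fold (1.96 ± 0.075, SE; limma adjusted p = 5.92e-10), Zfp296, Zfp59 and Zfp574. Zfp59 and Zfp574 stood at 2.05-fold and 2.00-fold. Zfp59 fell to 0.992 log2 units without FpB6D2 replicate 2, and Zfp574 to 0.971 without OpB6D2 replicate 5 and 0.979 without FpB6D2 replicate 3. Zfp574 also stood at 0.987 with quantile normalisation and at 0.506 when probe sets liable to bind more than 1 transcript were left out. The lower genes were Zfp975, Zfp740, Zfp106, Zfp423, Zfp462 and Zfp266. Zfp266 fell short of 2-fold without FpB6D2 replicate 2 (-0.97), OpB6D2 replicate 1 (-0.992) or OpB6D2 replicate 5 (-0.978). Zfp740 read 7.73, 7.47 and 7.76 in FpB6D2, against 8.93, 8.93 and 8.95 in OpB6D2. The median difference over the 129 genes, -0.06, turned to 0.002 with median centring and to 0.009 with quantile normalisation, so it has no settled sign.

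R1 against NmB6D2 compares the fertilised lines, which differ in strain and source. In R1 14 Zfp genes were higher (10.9% against 7.39% of all tested genes) and 7 lower (5.43% against 5.49%), with a median difference of 0.24. Zfp59 was 5.87-fold higher (2.55 ± 0.15, SE; limma adjusted p = 3.41e-09), Zfp703 5.10-fold, Zfp936 3.09-fold and Zfp41 2.79-fold. Zfp41 read 7.05, 6.97 and 7.15 in R1, against 5.61, 5.50 and 5.63 in NmB6D2. The lower genes included Zfp593, 3.63-fold, Zfp692, 3.16-fold, Zfp36, 3.13-fold, and Zfp991, 2.83-fold. Zfp692 read 5.73, 5.70 and 5.64 in R1, against 7.29, 7.36 and 7.40 in NmB6D2. Fibroblast and mesendoderm markers were also higher in R1, with means of 7.64 and 6.85, against 6.14 and 4.72 in NmB6D2. Of the tested markers, 6 of 8 fibroblast, 2 of 2 mesendoderm and 4 of 6 primitive endoderm genes were called higher in R1, the last with a median of 1.48. Of 6 trophectoderm genes 1 was higher and 2 lower, with a median of -0.305. The part of these markers in the Zfp differences was not tested. Zfp185, also lower in R1, fell short of 2-fold without R1 replicate 3 (-0.996), R1 replicate 4 (-0.918) or NmB6D2 replicate 2 (-0.996).

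By role, the list of repressors of retroelements and single loci named 10 genes, of which 7 were on the array and 6 were members. All 6 differed among the lines, against 46.5% of the 129 Zfp genes and 32.9% of all tested genes. Zfp708, also on the array, was not tested, at a mean of 3.33. The role lists were drawn up with earlier results of these data known, so this share is no test of the role. In FpB6CBA against FpB6D2 4 of the 6 were lower, 0 were higher and the list's median difference was -1.42, against -0.318 over all 129. These were Zfp819, which reached the level of 6 through FpB6D2, and Zfp932, Zfp568 and Zfp961. Zfp932, known to silence endogenous retroviruses, read 5.85, 5.53 and 5.21 in FpB6CBA, against 7.20, 7.17 and 7.28 in FpB6D2. Zfp568, which represses a placental Igf2 transcript, averaged 8.63 ± 0.26 against 10.05 ± 0.05 (SD, n = 3 each). Zfp961, which binds retroviral primer binding sites, read 7.48, 7.41 and 7.45 against 8.92, 8.77 and 8.93. None of the 3 overlapped between these lines, which their 2-fold calls make likely. The other members of the list were Zfp809, which silences murine leukaemia virus, and Zfp445, which helps to maintain imprints. Zfp445 averaged 7.83 ± 0.19 in FpB6CBA, 8.57 ± 0.09 in FpB6D2, 8.84 ± 0.05 in OpB6D2, 8.99 ± 0.04 in R1 and 8.75 ± 0.02 in NmB6D2 (SD, n = 3 each). Zfp809 was highest in OpB6D2, at a mean of 7.87 ± 0.11, and lowest in FpB6CBA, at 6.97, 6.65 and 6.34.

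The co-repressor machinery that KRAB proteins recruit was examined beside them, as 22 genes on the array, of which 7 differed among the lines (31.8%), close to the 32.9% of all tested genes. Trim28 ranged between means of 12.36 in FpB6D2 and 11.78 in NmB6D2, and did not reach a range of 1. Setdb1 averaged 8.19 to 8.55 and did not either. The 7 genes were Atf7ip, Cbx5, Atrx, Chd4, Ehmt2, Uhrf1 and Smarcad1. Ehmt2, a histone H3 lysine methyltransferase, had the widest range, with means of 10.44 in FpB6CBA, 9.02 in FpB6D2, 9.55 in OpB6D2, 8.69 in R1 and 10.75 in NmB6D2. Atf7ip, a cofactor of SETDB1, averaged 7.64, 8.99, 8.18, 7.32 and 7.36 in the same order. Smarcad1, a remodeller that acts with TRIM28, averaged 7.52, 9.32, 9.20, 9.02 and 8.37, lowest in FpB6CBA. Trim28 and Setdb1 thus stayed within 2-fold across the lines, and these 7 did not.

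Of the list on pluripotency and differentiation, 9 genes were members, and 6 of its 10 tested genes differed among the lines, against 46.5% of the 129 Zfp genes and 32.9% of all tested genes. Zfp296, a pluripotency factor that binds KLF4, read 7.74, 7.66 and 7.52 in FpB6CBA, 9.30, 9.37 and 9.32 in FpB6D2, 7.91, 7.93 and 7.88 in OpB6D2, 8.28, 8.28 and 8.45 in R1, and 7.50, 7.47 and 7.45 in NmB6D2. FpB6D2 stood above every other line on each array. Zfp462, which maintains heterochromatin in ES cells, read 7.57, 8.01 and 7.67 in FpB6CBA, 8.04, 8.14 and 8.01 in FpB6D2, 9.10, 9.16 and 9.07 in OpB6D2, 8.49, 8.40 and 8.45 in R1, and 8.91, 8.89 and 8.72 in NmB6D2. OpB6D2 was highest, and both follicle-derived lines were lowest and overlapped. Zfp423, a partner of EBF and SMAD factors, read 5.45, 5.43 and 5.11 in FpB6CBA, 6.24, 6.15 and 5.96 in FpB6D2, 7.23, 7.46 and 7.20 in OpB6D2, 5.91, 5.90 and 6.12 in R1, and 6.33, 6.31 and 6.49 in NmB6D2. OpB6D2 was again highest on every array and FpB6CBA lowest. Zfp703, a co-repressor that reached the level of 6 through R1, was high in that line alone, at 7.80, 8.12 and 7.87, against 5.70, 5.29 and 5.74 in NmB6D2. Zfp322a, which promotes Pou5f1 and Nanog expression, also differed, with its lowest mean of 6.25 in FpB6CBA and its highest of 7.33 in R1. Its other probe set was lowest in FpB6D2 at 5.09, with 5.19 in FpB6CBA, and highest in R1 at 7.07. Zfp503, a relative of Zfp703 and no member at a mean of 4.71, averaged 5.61 in R1 and 4.20 in NmB6D2. Zfp281, Zfp207, Zfp217 and Zfp516 were not called, with ranges from 0.48 to 0.96.

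Of the 11 members that bind RNA or act on the ribosome, 5 differed among the lines (45.5%), close to the 46.5% of all 129 Zfp genes. Zfp36, or tristetraprolin, binds AU-rich elements and speeds the decay of messenger RNA. It read 7.12, 7.15 and 7.14 in FpB6CBA, 6.58, 6.66 and 6.68 in FpB6D2, 6.27, 6.36 and 6.42 in OpB6D2, 6.01, 6.07 and 6.36 in R1, and 7.74, 7.83 and 7.80 in NmB6D2, so that NmB6D2 was highest on every array. Its relative Zfp36l2 was highest in R1, at 9.49, 9.54 and 9.53, against 8.24, 8.22 and 8.24 in NmB6D2, and Zfp36l1 had a range of 0.61 and was not called. Zfp593, which takes part in making the large ribosomal subunit, read 6.75, 6.39 and 6.71 in R1, against 8.49, 8.46 and 8.48 in NmB6D2. Zfp106, an RNA-binding protein, read 8.42, 8.21 and 8.21 in FpB6D2, against 9.96, 10.02 and 9.94 in NmB6D2. Zfp326, a splicing factor, was the other gene called, with means of 6.23 in FpB6CBA and 7.29 in OpB6D2. Its range fell to 0.977 without FpB6CBA replicate 1. Zfp598, which senses stalled ribosomes, and Zfp622, a factor of ribosome assembly, had ranges of 0.38 and 0.69.

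Of the 11 members that are partners of chromatin complexes, 5 differed among the lines (45.5%), again close to the 46.5% of the 129. Zfp638 was described above, and Zfp644, a partner of the EHMT methyltransferases, was highest in R1, at 8.61, 8.57 and 8.63, against 7.50, 7.67 and 7.50 in NmB6D2. Zfp410, known as an activator of Chd4, averaged 6.74 in FpB6CBA, 7.56 in FpB6D2, 7.86 in OpB6D2 and 7.17 in NmB6D2, and in R1 it was highest, at 8.18, 7.91 and 7.90. Zfp532 was highest in OpB6D2 with a mean of 8.79 and lowest in FpB6CBA with 7.72, and its range fell to 0.916 without FpB6CBA replicate 3. Zfp687, which with Zfp532 and Zfp592 belongs to a ZMYND8 complex, read 5.21, 6.13 and 6.06 in FpB6D2, against 6.89, 6.89 and 6.93 in NmB6D2. One FpB6D2 array set its SD of 0.51, the highest of any Zfp gene. Without that array, replicate 1, Zfp687 had a range of 0.813 and a difference of -0.813 from NmB6D2, and neither was called. Zfp592 and Zfp335 had ranges of 0.35 and 0.23.

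Chromosome 7 carried 26 of the 129 genes, the most of any chromosome. Of these 15 (57.7%) differed among the lines, against 33.9% of the other tested genes on chromosome 7, and of the 103 elsewhere 45 did (43.7% against 32.7%). It held 10 of the 20 genes that were lower in FpB6CBA than in FpB6D2, 8 of the 13 that were higher in FpB6D2 than in NmB6D2, and all 4 that were higher in FpB6D2 than in OpB6D2. Of the other tested genes 7.94% lie on chromosome 7, and they made up 12.1% (77 of 636), 10.7% (70 of 654) and 19.6% (32 of 163) of the other genes called in those 3 ways. The 3 counts share the arrays of FpB6D2 and are not independent. Zfp574, Zfp296, Zfp59 and Zfp819 are in all 3. Of the Zfp genes lower in FpB6D2, chromosome 7 held 1 of 10 against NmB6D2 and 1 of 6 against OpB6D2. The median difference of its Zfp genes in FpB6CBA against FpB6D2 was -0.642, and that of the other tested genes there was -0.075. The 3 X-linked genes, Zfp280c, Zfp185 and Zfp275, all differed (Zfp275 had a range of only 0.876 without FpB6CBA replicate 3), as did 60.6% of the other X-linked genes, whose median in FpB6CBA against FpB6D2 was -0.468. Against NmB6D2 the median of those other X-linked genes was 0.499 in OpB6D2, 0.436 in FpB6D2, -0.01 in FpB6CBA and 0.038 in R1. The part of this shift in the 3 Zfp genes was not tested.

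**Figure D5:**
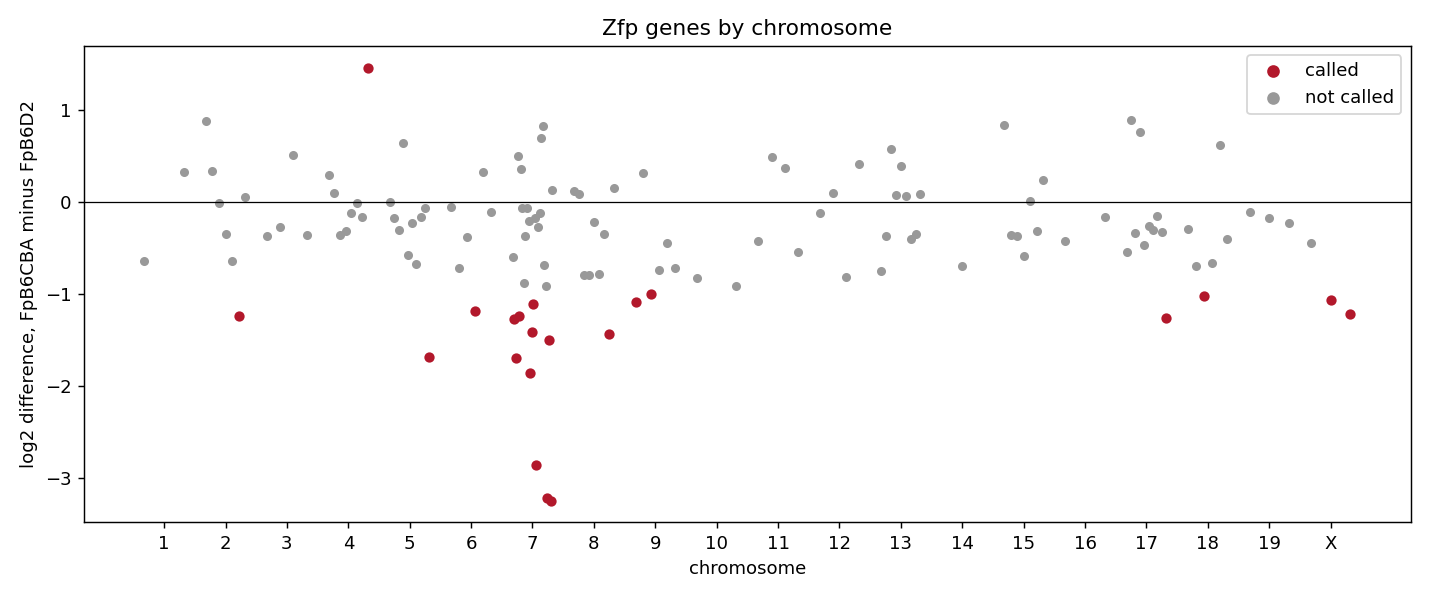
Log2 difference of FpB6CBA minus FpB6D2 (vertical axis) for the 129 Zfp genes by chromosome (horizontal axis; points of a chromosome are spread by symbol). Red points were called at an adjusted p under 0.05 and 2-fold; 10 of the 20 lower calls lie on chromosome 7 and the only higher call on chromosome 4.

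In the gene order of the reference, 42 members fell into 18 neighbourhoods in which consecutive members lay at most 5 protein-coding genes apart. Of the 42, 23 differed among the lines, and of the 87 outside 37 did. By the same rule 46.5% of all 129 Zfp genes and 32.9% of all tested genes differed. On chromosome 7, 57.7% of the Zfp genes and 33.9% of the other tested genes differed. All 9 members of 4 of its 5 neighbourhoods did, and neither Zfp553 nor Zfp771 of the fifth did. The 4 were Zfp59 with Zfp850, Zfp383 with Zfp568 and Zfp566, Zfp141 with Zfp975, and Zfp936 with Zfp715. Neighbours were alike in some lines and not in others. Zfp850 averaged 5.98 in FpB6CBA, 7.48 in FpB6D2, 6.91 in OpB6D2, 7.17 in R1 and 6.18 in NmB6D2, in the same order of lines as Zfp59 except that Zfp59 was lowest in NmB6D2. Zfp383 averaged 5.09, 6.32, 6.59, 6.62 and 5.88 in those lines, and Zfp566 averaged 5.71, 7.56, 6.86, 6.87 and 5.97. Both were lowest in FpB6CBA, as was Zfp568, but only Zfp566 and Zfp568 were highest in FpB6D2. Zfp141 and Zfp975 shared the highest line, OpB6D2, while the lowest was FpB6CBA for Zfp141 and NmB6D2 for Zfp975. On chromosome 4 Zfp991, Zfp982 and Zfp979 are neighbours that all differed, with Zfp982 highest in R1 at 9.51 and Zfp991 lowest there at 6.76. Of the 8 Zfp genes on that chromosome 75% differed, and of its other tested genes 29.8%. The range of Zfp979 fell to 0.871 without R1 replicate 4. Genes of a cluster can be similar in sequence, and whether probes of one bind the RNA of another was not tested.

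Other probe sets of the same gene bear on these calls. There were 89 calls over the 6 contrasts, in 46 genes, and for 30 of them the gene had another probe set at the filter value. Genes that differed by the F-test alone are not in these counts. In 22 of the 30 every other probe set had the same sign, and in 11 at least 1 of them also reached 2-fold. Zfp975 in OpB6D2 against NmB6D2 stood at 2.10 with the other probe set at 2.35, and Zfp991 in R1 against NmB6D2 at -1.50 with the other at -1.63. In 8 of the 30, in 7 genes, some other probe set had the opposite sign. In R1 against NmB6D2, Zfp703 stood at 2.35 with others at -0.238 and -0.177, Zfp593 at -1.86 with the other at 0.384, and Zfp36l2 at 1.28 with others at -0.176 and -0.145. Zfp106 in FpB6D2 against NmB6D2 stood at -1.69 with others at -0.688, -0.016 and 0.668. It also stood at -1.20 in FpB6D2 against OpB6D2 with others at -0.37, 0.025 and 0.355. In that comparison Zfp462 stood at -1.04 with others at -0.704 and 0.294, and Zfp266 at -1.002 with others at -0.433, -0.102 and 0.294. Zfp644 in R1 against NmB6D2 stood at 1.05 with others at 1.01 and -0.009. For these 7 genes the probe sets do not give one direction. With the mean over the gene's probe sets in place of the brightest, 1 or more differences also fell below 2-fold for Zfp59, Zfp106, Zfp266, Zfp277, Zfp280d, Zfp365, Zfp462, Zfp574, Zfp593, Zfp703 and Zfp991, and the range of Zfp770 fell to 0.936. Zfp819, Zfp936, Zfp296, Zfp36 and Zfp280c have a single probe set each, and Zfp59 has no other at the filter value, so no such check exists for them.

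The parthenogenetic and fertilised lines were compared on line means, 3 against 2, so that each line counts once. None of the 129 Zfp genes was called by limma (0 of all 12813 tested genes, a background of 0%), and the smallest adjusted p of a Zfp gene was 0.924. At an unadjusted p under 0.05 there were 7 Zfp genes (5.43%) and 605 of all tested genes (4.72%), a similar share. Leaving out 1 line moved the number of Zfp genes at that p to 5 without FpB6CBA, 1 without FpB6D2, 11 without OpB6D2, 5 without R1 and 15 without NmB6D2. Without NmB6D2 66 of all tested genes were called, 0 of them Zfp genes, whose smallest adjusted p was 0.0829. On the arrays themselves, 3 Zfp genes had all 9 parthenogenetic arrays above all 6 fertilised arrays (2.33% against 4.43% of all tested genes) and 8 had them below (6.20% against 2.57%). Of the other genes at 6 or more, 5.56% had them above and 3.33% below. Zfp277, Zfp185 and Zfp110 were the 3 above, and the 8 below were Zfp280c, Zfp266, Zfp106, Zfp982, Zfp292, Zfp647, Zfp871 and Zfp664. Several of these were picked out after their values were seen. Zfp185, a gene for a protein of the actin cytoskeleton, read 6.93, 7.17 and 6.92 in FpB6CBA, 7.42, 7.50 and 7.43 in FpB6D2 and 7.23, 7.35 and 7.43 in OpB6D2, against 5.83, 5.67 and 6.03 in R1 and 6.87, 6.84 and 6.83 in NmB6D2. The gap to NmB6D2 was small and most of the difference lay in R1. Zfp185 is X-linked, and against NmB6D2 it stood at 0.488 in OpB6D2 and 0.601 in FpB6D2. The medians of other X-linked genes there were 0.499 and 0.436. Zfp280c, also X-linked, stood at -0.658 and -1.35. Zfp647 read 6.09 to 6.63 in the parthenogenetic lines, against 7.44, 7.48 and 7.45 in R1 and 6.95, 7.07 and 6.84 in NmB6D2. With 3 lines against 2, these orders describe the lines and not the modes of origin.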

How the data were processed

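The deposited values are on the log2 scale, which was inferred from their range of 1.99 to 13.96. The authors made them with RMA in the affy package, per the submitters' processing notes, and other steps are not given in the sources used here. RMA makes the arrays share one distribution, so a shift of all genes cannot be seen, and the number of arrays limits the precision.

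Of 45101 probe sets, 34945 were annotated to 1 gene symbol, 932 to several and 9160 to none, and 64 were controls. The first of these covered 18193 genes, each represented by its probe set with the highest mean. Genes had to reach 3.864, the overall median, on 3 or more arrays to be tested, which left 12813. limma 3.58.1 in R 4.3.3 was fitted to all 15 arrays with lines as groups, giving a moderated F-test over the 5 lines and 6 contrasts. Parthenogenetic and fertilised lines were compared on line means. P values were adjusted over all tested genes by Benjamini-Hochberg, and calls needed an adjusted p under 0.05 and at least 2-fold. The fit was tested on simulated data. The members and lists were chosen with earlier results of these data known, and p values over the members alone are not given. Named genes were the 4 largest called differences in each direction per contrast, the 10 widest ranges, the 5 brightest and 5 steadiest genes, genes in the role lists, those at the level limit and called neighbours. Alternatives changed the filter, probe set, normalisation, variance model, fold minimum, level limit, arrays and replicate block. The 27 probe sets annotated to several genes with a Zfp symbol among them were left out. Gene order and promoters came from RefSeq, GRCm38.p6.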

Additional observations from a re-analysis of the deposited data

How the results depend on the processing

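The 50 values of single named genes were recomputed under 24 settings, giving 816 alternative values. Of these 792 kept their direction and their side of the threshold, 24 kept only the direction, and 0 reversed. The 10 widest ranges are among the 50 values, and a range cannot be negative, so these could not reverse. The probe sets of opposite sign described above were not used alone in any setting. The 0 is therefore partly fixed in advance. The counts of called Zfp genes moved most with the call rule and the choice of members. With no fold minimum there were 125 across the 5 lines, 78 in OpB6D2 against NmB6D2, 96 in FpB6D2 against NmB6D2, 77 in FpB6CBA against NmB6D2, 99 in R1 against NmB6D2, 92 in FpB6D2 against OpB6D2 and 96 in FpB6CBA against FpB6D2. With members at a mean of 5 or more, the counts that moved past 1.5 times were 92 across the lines, 35 in FpB6D2 against NmB6D2 and 34 in FpB6CBA against FpB6D2. With members at 7 or more, the counts in the same order as above were 32, 2, 12, 3, 10, 6 and 9; here and above, the number of genes counted differs by construction. With the mean of all probe sets of a gene there were 4 in OpB6D2 against NmB6D2, 15 in FpB6D2 against NmB6D2, 11 in R1 against NmB6D2 and 6 in FpB6D2 against OpB6D2. With all 15 arrays as replicates of the mode of origin, 3 Zfp genes were called between parthenogenetic and fertilised lines, a fit that treats arrays of one line as independent. Leaving out each array in turn gave 59 to 61 across the lines, 7 to 8 in OpB6D2 against NmB6D2, 21 to 23 in FpB6D2 against NmB6D2, 5 to 8 in FpB6CBA against NmB6D2, 20 to 22 in R1 against NmB6D2, 8 to 10 in FpB6D2 against OpB6D2 and 19 to 21 in FpB6CBA against FpB6D2. No pairing of samples by the numbers in the array titles was seen. The deviations of 12 same-numbered pairs correlated at -0.181 to 0.127, and those of 55 differently numbered pairs at -0.109 to 0.136. This does not show that the samples were unpaired. With the numbers as a replicate block, over the 13 arrays with a number, 14 Zfp genes were called in FpB6CBA against NmB6D2, where the main fit called 7. Across the lines 62 were called, and the other contrasts stayed within 1.5 times. The cause was not tested. The planned restriction to genes whose protein carries C2H2 motifs was not run.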
